A study of Homo sapiens with 15 samples.

Results

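The comparison set the 4 HEK293T libraries with a hairpin against SF3B4 or U2AF2, taken as 1 pooled group, against the 3 control hairpin libraries. These are 7 of the 15 libraries of the series. Members were chosen by the titles and by completeness: a gene entered when it had a value in each of the 7 libraries, which held for 11726 of 13056 genes. The response of interest was the one common to both knockdowns, in which all 4 knockdown libraries lay on the same side of the controls.

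Most human genes carry more than 1 poly(A) site, and the site at which cleavage takes place sets where the 3' end of the messenger RNA lies. U2AF2 is the larger of the U2AF proteins and contacts the polypyrimidine tract just upstream of a 3' splice site. SF3B4 is a subunit of SF3b, the part of the U2 snRNP that helps to hold it at the branch point next to that site. Both proteins therefore act at the same step of spliceosome assembly, and the 3' splice site of the last intron is recognised together with the poly(A) site that ends the last exon.

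HEK293T is a line from human embryonic kidney. Per the labels, shControl was the group of genotype WT with 3 libraries, and shSF3B4 and shU2AF2 were knockdowns with 2 libraries each. The other 8 libraries were 2 each of shHDAC1, shPABPN1, shPCBP2 and shZNF384, and they are used below as a second reference. All cells carried a short hairpin RNA, and the labels give no treatment, time, clone or number of hairpins per gene. Nothing in them says that replicates were grown separately, so p-values measure the spread between these samples, which may be technical. The measured value was PDUI, an estimate of how much of the RNA of a gene ends at its distal poly(A) site, given as a fraction between 0.001 and 1. PDUI carries no read counts and is not an amount of RNA, so the depth is unknown and neither the strength of the knockdowns nor the markers of the cell line could be checked. Both nuclear and total RNA are named in the labels. The control library names carry a suffix, nuc, that no knockdown library name has, so a difference from control cannot be told apart from whatever that suffix marks. The 2 shSF3B4 columns are numbered differently in the titles and the library names and were therefore assigned to their group alone.

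Averaged over the 11726 genes, PDUI was 0.525, 0.564 and 0.564 in the control libraries, 0.565 and 0.573 in the shSF3B4 libraries and 0.575 and 0.566 in the shU2AF2 libraries. Means were 0.57 ± 0.0049 (SD, n = 4) in the knockdown libraries and 0.551 ± 0.0225 (SD, n = 3) in the controls, and the groups only just did not overlap, with the lowest knockdown library at 0.5653 and the highest control at 0.5644. The difference of 0.0187 had p = 0.057 (exact permutation, two-sided), the smallest value this design of 4 against 3 allows. Control replicate 1 was the lowest of the 7, and without it the difference was 0.0057 (exact permutation p = 0.133, again the smallest possible). With the median over genes in place of the mean, the highest controls and the lowest knockdown libraries tied at 0.58. The difference was then 0.0275 (exact permutation p = 0.343). Libraries lacked a value for 1.37% to 4.49% of genes over the whole series.

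At the level of genes, limma called 975 of 11726 genes in the pooled comparison at an adjusted p under 0.05, 8.31% of those tested. Of these, 783 were higher (6.68%) and 192 lower (1.64%). In 1083 genes, or 9.24%, all 4 knockdown libraries were above the highest control, and in 346 genes, or 2.95%, all 4 were below the lowest control. Genes that met both conditions are called the common response here. It held 652 genes that rose (5.56% of those tested) and 151 that fell (1.29%), together 803 genes or 6.85%. Rises, toward the distal site, made up 81.2% of it. With each library centred on its median PDUI there were 237 rises and 189 falls, so that 55.6% of the common response rose. Of the 652 rises 236 remained under centring, and of the 151 falls 136 remained. Centring moved the median difference of all genes from 0.0117 to −0.0158, and 35 of the 803 differences changed sign.

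The rises were mostly in genes that used the distal site little in control cells. The control mean was under 0.25 in 402 of the 652 genes (61.7%), against 20.9% of all genes tested. It was 0.75 or more in 20 of them (3.1%), against 31.2% of all genes. The median rise was 0.123 with a range from 0.009 to 0.691, and 385 genes rose by at least 0.1, 156 by at least 0.2 and 59 by at least 0.3. In 14 of the 652 genes all 4 knockdown libraries reached 0.95 or more, close to distal use alone, beside 889 of all 11726 genes tested. The falls had a median of −0.14, from −0.496 to −0.025, and 42 of them were 0.2 or larger in size. They began from higher levels than the rises: the control mean was 0.75 or more in 56 of the 151 genes (37.1%), against 31.2% of all genes. The median control mean was 0.607 in the falls, near the 0.57 of all genes. All 3 controls were at 0.95 or more in 20 of the falls and in 1009 of all 11726 genes. PDUI cannot leave the range from 0 to 1, so a large rise is possible only from a low level and a large fall only from a high one.

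**Figure D1:**
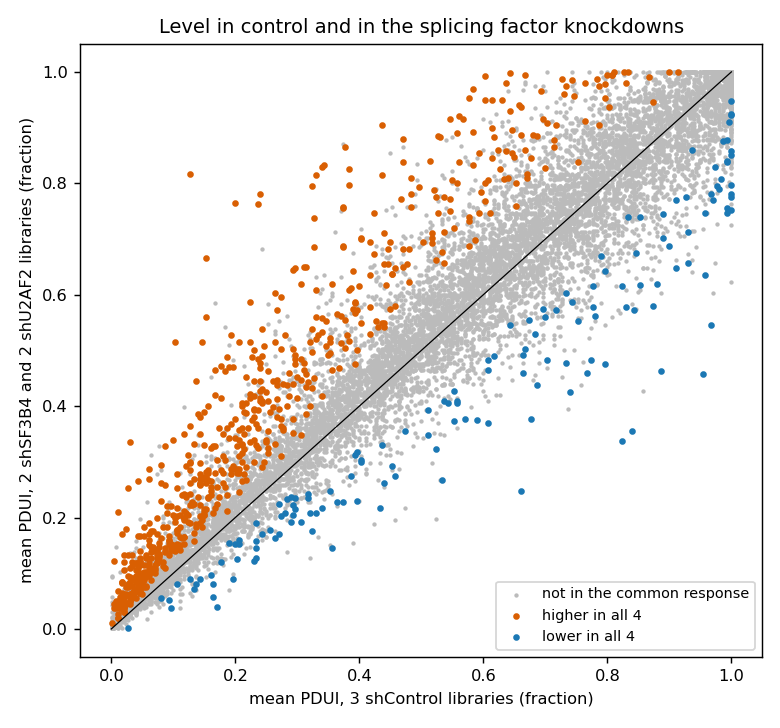
Mean PDUI of the 4 shSF3B4 and shU2AF2 libraries (vertical axis, fraction) against the mean of the 3 shControl libraries (horizontal axis, fraction), 1 point per gene, with the line of equal values. Of the orange points, the 652 genes that rose, 402 have a control mean under 0.25, and the 151 blue points, the genes that fell, reach to a control mean of 1.

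AP2A1, the alpha subunit of the clathrin adaptor AP-2 at the plasma membrane, had the widest gap between the nearest knockdown and the nearest control library. Its PDUI was 0.07, 0.15 and 0.16 in the controls, 0.8 and 0.81 in shSF3B4 and 0.85 and 0.81 in shU2AF2. The 4 knockdown libraries lay between 0.8 and 0.85, and none of the 8 libraries of the other knockdowns exceeded 0.34. The pooled mean was 0.818 ± 0.022 (SD, n = 4) against 0.127 ± 0.049 (SD, n = 3), a difference of 0.691 (SE 0.0262, limma, adjusted p = 2.21e-06). The table's transcript is a single exon at chr19:49804876-49807113 on the plus strand of hg38, and FUZ overlaps it on the opposite strand. An intron of another AP2A1 transcript lies inside this exon, and whether its splicing entered the PDUI was not tested. No strand setting of the counting is given, so reads from the overlapping genes named here and below cannot be told apart and such values are uncertain.

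Among the genes without an annotated overlap, TSC1, which encodes hamartin, an inhibitor of mTOR complex 1, stood at 0.58, 0.59 and 0.64 in the controls. It reached 0.97 and 1 in shSF3B4 and 1 and 1 in shU2AF2, a difference of 0.389 (SE 0.0425, limma, adjusted p = 0.000494). Every knockdown library was thus at or near complete distal use, while the 8 other knockdown libraries lay between 0.5 and 0.74. Its last exon is at chr9:132891348-132896754 on the minus strand. SEMA4D, a semaphorin, had 0.1, 0.12 and 0.24 in the controls, 0.5 and 0.58 in shSF3B4 and 0.53 and 0.63 in shU2AF2. EGFR, the receptor of epidermal growth factor, had 0.37, 0.27 and 0.35 in the controls, 0.88 and 0.99 in shSF3B4 and 0.75 and 0.64 in shU2AF2. Its 2 shSF3B4 libraries were above its 2 shU2AF2 libraries, but the difference between the knockdowns, 0.24, did not pass (limma, adjusted p = 0.141). PEX16, a peroxisome biogenesis factor, had 0.3, 0.19 and 0.23 in the controls, 0.69 and 0.72 in shSF3B4 and 0.91 and 0.8 in shU2AF2. PEX16 libraries of both knockdowns were separate from the controls by 0.39.

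The next genes by width of the gap spanned several functions. TBL3, a protein of the small subunit processome in ribosome assembly, rose by 0.512 (limma, adjusted p = 4.1e-05), and its last exon overlaps NOXO1. NOL9, a polynucleotide kinase that acts on ribosomal RNA precursors, rose by 0.468 (adjusted p = 0.00317, limma). ELP5, a subunit of the Elongator complex that modifies transfer RNA, rose by 0.442 with values of 0.32 to 0.42 in the controls and 0.73 to 0.95 in the knockdowns, and overlaps CLDN7. CFD, complement factor D, rose by 0.526, RXRA, a retinoid X receptor, by 0.367, and CFAP410, a cilium-associated protein, by 0.364. PDK3 encodes a kinase that inhibits pyruvate dehydrogenase, but its transcript here is annotated with 1 exon and as sense-overlapping, not as protein-coding. The match was to another version of this transcript, and whether the value describes the messenger RNA of the kinase was not tested. The PDUI of PDK3 rose by 0.384 from controls of 0.31 to 0.41. The other knockdowns reached 0.86, however, and the pooled libraries did not differ from them (limma, adjusted p = 0.106). The same held for ZNF704 at 0.343 above control and for the pseudogene CYP4F26P at 0.328, where the median of the other 8 libraries was 0.935 and 1. All 20 genes with the widest gaps kept their calls with libraries centred and with any 1 of the 7 libraries left out. With only the 7 libraries fitted and the 4 knockdown libraries taken as 1 group, CFD (limma, adjusted p = 0.0646), U47924.2 (0.0739), EGFR (0.0646) and AC100830.3 (0.0608) lost theirs.

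**Figure D2:**
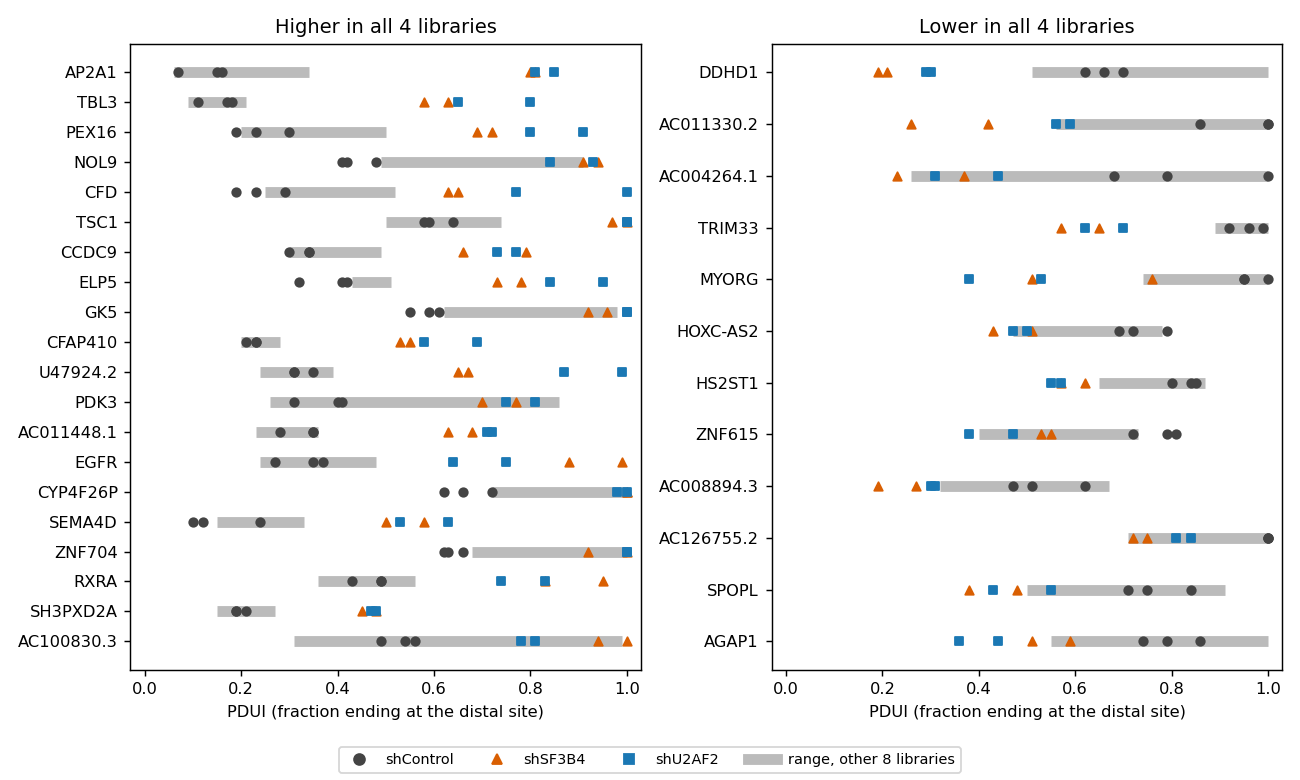
PDUI (horizontal axis, fraction) of the 20 genes that rose and the 12 that fell with the widest gaps, with 1 symbol per library for shControl, shSF3B4 and shU2AF2 and a grey bar for the range of the 8 libraries of the other knockdowns. AP2A1 shows the widest gap, 0.64, and the grey bar of PDK3 reaches over its knockdown libraries.

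The distal ends of genes from both directions are printed to show what lies at the end that is gained or lost. Each is the last 30 bases of the table's transcript in GENCODE release 29, from hg38, written 5′ to 3′ on the strand of the gene, with T for U and with the poly(A) signal AATAAA or its variant ATTAAA in capitals. The first group of lines gives genes that rose, at chr19:49807084-49807113 (plus strand, AP2A1), chr9:132891348-132891377 (minus, TSC1), chr17:7259902-7259931 (plus, ELP5), chr9:89360787-89360816 (minus, SEMA4D) and chr10:103594027-103594056 (minus, SH3PXD2A), and the last lines give genes that fell, at chr14:53036745-53036774 (minus, DDHD1) and chr2:236131771-236131800 (plus, AGAP1).
AP2A1: ttgtgagcgAATAAAcagagagacgctaac
TSC1: aacaAATAAAaatttattgttttgcactac
ELP5: gtacctAATAAAaatctttatttttttatt
SEMA4D: aaaAATAAAaatagagttgtacattgttca
SH3PXD2A: taAATAAAgttttgggcctttttaaccgaa
DDHD1: ATTAAAaaacacaaaagcaatatgtttctc
AGAP1: ataaagaaatgaaaatatgtctacaccgct
The 5 rising genes shown have AATAAA in this window, DDHD1 has the variant, and the AGAP1 window holds neither. These few do not stand for the rest: the ends of CCDC9, U47924.2, AC011448.1 and DBNL, which rose, hold neither hexamer, and those of HOXC-AS2, AC008894.3 and AC126755.2, which fell, hold AATAAA. Over the last 40 bases, on the gene's strand, AATAAA was present in 52.8% of the matched genes that rose, in 67.3% of those that fell and in 59.2% of all matched genes. ATTAAA without AATAAA was present in 14.4%, 10% and 14.1%. A match is a description of the annotated end and not a measured cleavage site.

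Other rises were smaller, with close values within each knockdown. SH3PXD2A, a scaffold of podosomes, had 0.19, 0.21 and 0.19 in the controls, 0.48 and 0.45 in shSF3B4 and 0.48 and 0.47 in shU2AF2. The difference was 0.273 (SE 0.0105, limma, adjusted p = 2.21e-06), and the 2 knockdowns did not differ from each other (−0.01, limma, adjusted p = 0.862). PLXNA3, a semaphorin receptor, went from 0.04, 0.03 and 0.03 to 0.09 and 0.1 in shSF3B4 and 0.13 and 0.13 in shU2AF2. Its rise of 0.079 lost its call with libraries centred (0.052, limma, adjusted p = 0.117), and its last exon overlaps LAGE3. DGAT1, the enzyme of the last step of triglyceride synthesis, had 0.14, 0.13 and 0.13 in the controls and overlaps HSF1. It had 0.29 and 0.3 in shSF3B4 and 0.37 and 0.37 in shU2AF2. The 2 knockdowns differed in PLXNA3 and in DGAT1 (limma, adjusted p = 0.00474 and 0.00204). In all, 96 of the 652 genes that rose cleared the highest control by 0.01, the smallest step of the table, the median clearance was 0.05, and 162 cleared it by at least 0.1.

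DDHD1, a phospholipase, showed the widest gap among the falls. It had 0.62, 0.7 and 0.66 in the controls, 0.21 and 0.19 in shSF3B4 and 0.3 and 0.29 in shU2AF2. The difference was −0.412 (SE 0.0309, limma, adjusted p = 7.2e-05), and all 8 other knockdown libraries were at 0.51 or above, with a median of 0.83. Its last exon, at chr14:53036745-53046949 on the minus strand, overlaps AL352979.2. TRIM33, a ubiquitin ligase of transforming growth factor beta signalling, had 0.99, 0.96 and 0.92 in the controls, 0.65 and 0.57 in shSF3B4 and 0.7 and 0.62 in shU2AF2. Control cells thus used almost only the distal site of TRIM33, and no knockdown library exceeded 0.7. HS2ST1, a heparan sulfate sulfotransferase, had 0.84, 0.8 and 0.85 in the controls, 0.62 and 0.57 in shSF3B4 and 0.57 and 0.55 in shU2AF2. AGAP1, an Arf GTPase-activating protein, had 0.86, 0.74 and 0.79 in the controls, 0.59 and 0.51 in shSF3B4 and 0.36 and 0.44 in shU2AF2. MYORG, a glycosidase, fell by 0.422 with an uneven response: 0.76 and 0.51 in shSF3B4 and 0.53 and 0.38 in shU2AF2, against 0.95, 1 and 0.95.

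Of the other falls with wide gaps, 5 were clone-named or antisense genes, AC011330.2, AC004264.1, AC008894.3, AC126755.2 and HOXC-AS2. The last exons of AC004264.1, AC008894.3 and HOXC-AS2 lie opposite LIF, TPM4 and both HOXC6 and HOXC9. ZNF615, a zinc finger gene, fell by 0.291 (limma, adjusted p = 0.0134), which became 0.0536 without control replicate 1. SPOPL, an adaptor of a cullin ubiquitin ligase, fell by 0.307 (limma, adjusted p = 0.0373), but the call was lost with any 1 of the 7 libraries left out, with adjusted p from 0.0545 to 0.122. For AC126755.2 the same was seen, with adjusted p from 0.0736 to 0.0997. AC011330.2 lost its call without control replicate 2 (0.0532) and without control replicate 3 (0.0578). The other 8 of the 12 named falls kept their calls in every leave-one-out fit, but 4 of these 8 lost them with only the 7 libraries fitted and the knockdowns taken as 1 group. Adjusted p in limma was then 0.0646 for AC004264.1, 0.0897 for MYORG, 0.0572 for AC008894.3 and 0.0764 for AGAP1. On a logit scale with limits of 0.01 it was 0.0776 for AC004264.1, 0.0551 for MYORG and 0.203 for AGAP1. Over all falls, the number was 100 without control replicate 3 in place of 151. Against the other knockdowns, ZNF615, AC011330.2 and SPOPL did not pass (limma, adjusted p = 0.262, 0.139 and 0.0582). The rest of the 12 named falls passed there.

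The other 4 knockdowns give a reference that does not use the control libraries. Against their mean, the 4 splicing factor libraries differed in 1198 of 11701 genes, or 10.2% (limma), with 750 higher (6.41%) and 448 lower (3.83%). Of the 651 common rises tested there, 507 were higher and 2 lower. Of the 151 common falls, 123 were lower and 0 higher. Both comparisons use the same 4 splicing factor libraries, so these counts describe the genes and are not independent of how they were found. The median level of the common rises was 0.19 in shControl, 0.32 in shSF3B4 and 0.335 in shU2AF2, and 0.185 in shHDAC1, 0.24 in shPABPN1, 0.225 in shPCBP2 and 0.235 in shZNF384. For the common falls it was 0.607 in shControl, 0.395 in shSF3B4 and 0.385 in shU2AF2, and between 0.55 and 0.575 in the other 4 knockdowns. By these medians the other knockdowns were nearer to control in both sets. The sets were chosen for a difference of the splicing factor libraries from control, which favours such a pattern.

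In 230 of the 647 common rises with a value in every library, all 4 splicing factor libraries were above each of the other 11 libraries, a pattern shown by 251 of all 11353 complete genes (2.21%). The same separation downwards held for 73 of 150 common falls and for 109 of all complete genes (0.96%). Lying beyond the controls was already required of the common response, so its higher shares follow in part from the selection. Of the common response genes that differed from the other knockdowns in the same direction, the 8 with the smallest p were all rises. They included AP2A1, SH3PXD2A, DGAT1, RPAP2, PLXNA3, MAPK1IP1L and DBNL. RPAP2, a phosphatase of the tail of RNA polymerase II, had at most 0.1 in any of the 8 other knockdown libraries and at most 0.05 in the controls. Some common response genes did not stand apart from the other knockdowns. HNRNPA3, for example, was 0.125 above control but 0.022 above the other knockdowns (limma, adjusted p = 0.133), where the median of the 8 libraries was 0.395 against 0.27 in all 3 controls.

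**Figure D3:**
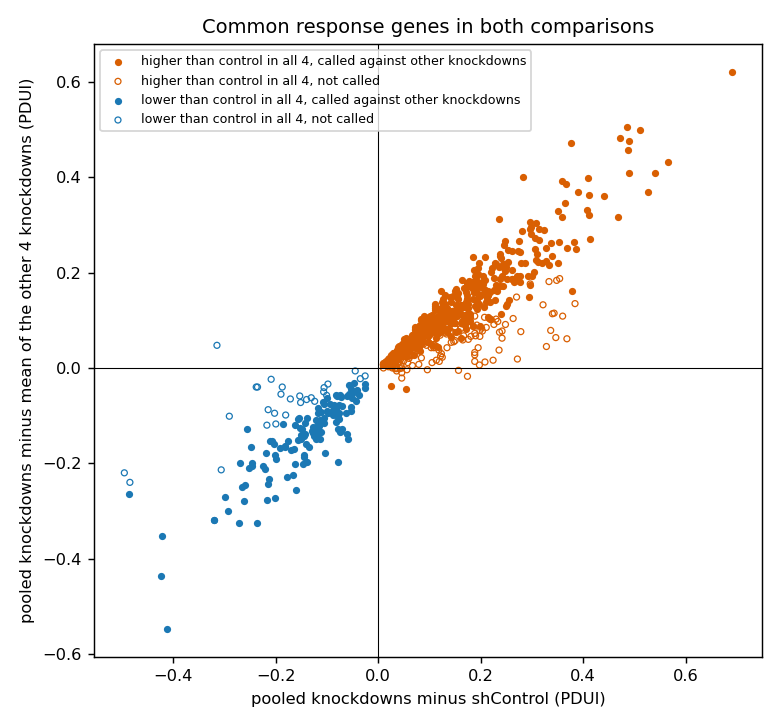
Difference of the 4 splicing factor libraries from the mean of the other 4 knockdowns (vertical axis, PDUI) against their difference from shControl (horizontal axis, PDUI) for the common response genes tested in both, filled where the former passed at an adjusted p under 0.05. Both axes use the same 4 libraries. Of the genes, 507 of 651 that rose and 123 of 151 that fell are filled in the direction of their change. Open points are genes that did not pass against the other knockdowns, whatever the size of the difference.

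The size of the common response differed between the 2 knockdowns in a minority of genes. The median difference from control over the 652 rises was 0.108 in shSF3B4 and 0.122 in shU2AF2, and over the 151 falls −0.125 and −0.14. On its own against control, shSF3B4 passed in 418 of the 652 rises and 78 of the 151 falls (limma, 5.76% of all genes tested). For shU2AF2 alone these counts were 500 and 100 (limma, 7.86% of all genes tested). Both comparisons share the 3 control libraries. The common response was chosen with these same values, so its high shares beside those of all genes follow from the selection. Tested directly, shSF3B4 differed from shU2AF2 in 511 of 11726 genes (4.36%), among them 144 of the 652 rises and 14 of the 151 falls. Of the 144 rises, 100 were larger in shU2AF2 and 44 larger in shSF3B4. The 14 falls were split into 7 and 7.

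MAPK1IP1L, DBNL and RPAP2 rose in both knockdowns, by unequal amounts. MAPK1IP1L had 0.32, 0.3 and 0.3 in the controls, 0.47 and 0.47 in shSF3B4 and 0.77 and 0.77 in shU2AF2. The knockdowns differed by −0.3 (SE 0.0156, limma, adjusted p = 2.42e-05). DBNL, an actin-binding adaptor, had 0.09, 0.12 and 0.1 in the controls, 0.31 and 0.38 in shSF3B4 and 0.68 and 0.69 in shU2AF2, with PGAM2 on the opposite strand. These 2 genes rose more after U2AF2 knockdown. RPAP2 rose more in shSF3B4, with 0.37 and 0.37 against 0.16 and 0.16 in shU2AF2 and 0.04, 0.05 and 0.04 in the controls. The difference between the knockdowns was 0.21 (SE 0.0115, limma, adjusted p = 2.61e-05). Among the falls, ZNF562, a zinc finger gene, was at 1 in all 3 controls and all 8 other libraries, at 0.72 and 0.77 in shSF3B4 and at 0.94 and 0.97 in shU2AF2. TM9SF3, a transmembrane protein, had 0.31, 0.33 and 0.31 in the controls, 0.2 and 0.19 in shSF3B4 and 0.3 and 0.28 in shU2AF2. For ZNF562 and TM9SF3, shU2AF2 on its own did not pass against control (limma, adjusted p = 0.0695 and 0.19).

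The site use of the targeted genes themselves did not pass the test. SF3B4 had 0.49, 0.58 and 0.53 in the controls, 0.55 and 0.56 in shSF3B4 and 0.53 and 0.53 in shU2AF2. U2AF2 had 0.36, 0.45 and 0.43 in the controls, 0.45 and 0.44 in shSF3B4 and 0.42 and 0.49 in shU2AF2. The groups overlapped in both genes, and the pooled differences of 0.009 and 0.037 did not pass (limma, adjusted p = 0.932 and 0.492).

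Among 31 tested genes of the U2 snRNP and of 3' splice site recognition, 4 rose, 0 fell and 27 did not pass, that is, were outside the common response, beside 5.6% rising and 1.3% falling over all genes. SF3B1, SF3A1 and SUGP1 were among them. SF3B1, the scaffold of the SF3b complex that SF3B4 belongs to, had 0.06, 0.06 and 0.05 in the controls, 0.11 and 0.11 in shSF3B4 and 0.1 and 0.09 in shU2AF2 (limma, adjusted p = 0.000187). SF3A1, of the SF3a complex of the same snRNP, had 0.25, 0.25 and 0.24 in the controls and 0.29 to 0.32 in the knockdowns. SUGP1, a splicing protein that works with SF3B1, was at 0.01 to 0.03 in the controls, 0.04 and 0.08 in shSF3B4 and 0.17 and 0.13 in shU2AF2. These are rises at low PDUI: the proximal ends still made up most of the transcripts in each of the 7 libraries. The list's median difference was 0.02, beside 0.0117 over all genes, and with libraries centred none of the 31 genes was in the common response. The shares over all genes, 5.6% rising and 1.3% falling, also stand beside the counts of each list below.

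Among the 29 genes for U1, U4/U6 and U5 snRNP proteins, 3 rose, 0 fell and 26 did not pass. LUC7L3, a U1-associated protein, had 0.04, 0.05 and 0.05 in the controls, 0.11 and 0.13 in shSF3B4 and 0.13 and 0.11 in shU2AF2. SART1, a tri-snRNP protein, had 0.12, 0.14 and 0.12 in the controls, 0.19 and 0.28 in shSF3B4 and 0.5 and 0.49 in shU2AF2, a rise that was larger in shU2AF2 (−0.26 between the knockdowns, limma, adjusted p = 0.000979). TXNL4A, a small U5 protein, was at 0.04 to 0.05 in the controls and 0.07 to 0.09 in the knockdowns, and overlaps HSBP1L1. SART1 was the gene of this list in the common response with libraries centred.

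SR proteins, which bind exons and recruit spliceosome parts, were the splicing list with more falls than rises: of 28 tested genes, 1 rose, 3 fell and 24 did not pass. SRSF10 had 0.51, 0.54 and 0.52 in the controls, 0.25 and 0.26 in shSF3B4 and 0.41 and 0.37 in shU2AF2, a difference of −0.201 (SE 0.0183, limma, adjusted p = 0.000187). All 4 libraries were lower, and shSF3B4 was lower than shU2AF2 (limma, adjusted p = 0.0153). SRSF11 went from 0.21, 0.21 and 0.2 to 0.15 and 0.13 in shSF3B4 and 0.16 and 0.17 in shU2AF2. SRSF7 fell by 0.045 (limma, adjusted p = 0.0353). The call was lost in 5 of the 7 leave-one-out fits, those without control replicate 3 or any knockdown library, with adjusted p from 0.0601 to 0.0854. Against the other knockdowns SRSF7 differed by −0.006 (limma, adjusted p = 0.805). SRSF3 rose from 0.05 in all 3 controls to 0.06 and 0.07, with a direction that turned to −0.015 with libraries centred. With libraries centred the list had 0 rises and 3 falls, though SRSF7 itself was then not called.

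Of 41 genes for hnRNP, KH-domain and other RNA-binding proteins, some of which compete with or assist splicing factors, 7 rose, 0 fell and 34 did not pass. The rises were HNRNPA3, HNRNPD, HNRNPDL, CELF2, FXR1, MBNL3 and TIAL1. CELF2 and TIAL1 bind RNA through RRM domains and MBNL3 through zinc fingers, and these 3 are neither hnRNP nor KH-domain proteins. HNRNPDL had 0.35, 0.25 and 0.26 in the controls, 0.41 and 0.43 in shSF3B4 and 0.43 and 0.4 in shU2AF2. HNRNPA3 was at 0.27 in every control, 0.33 and 0.34 in shSF3B4 and 0.47 and 0.44 in shU2AF2. CELF2 rose by 0.104 (limma, adjusted p = 0.0141), which became 0.0594 without control replicate 1 and 0.0619 without control replicate 3. HNRNPD, at 0.05 to 0.06 in the controls and 0.07 to 0.08 in the knockdowns, turned to −0.003 with libraries centred. Without control replicate 1 the list had 4 rises, and with libraries centred it had 0.

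Of 32 tested genes for cleavage and polyadenylation factors, the machinery that reads the poly(A) signal, 0 rose, 1 fell and 31 did not pass. The fall was PPP1CB, a phosphatase catalytic subunit, with 0.41, 0.48 and 0.42 in the controls, 0.31 and 0.28 in shSF3B4 and 0.38 and 0.35 in shU2AF2. Its last exon overlaps SPDYA. Among 29 nuclear RNA decay and export genes, 3 rose, 1 fell and 25 did not pass. EXOSC6, a subunit of the RNA exosome, fell from 0.26, 0.26 and 0.25 to 0.21 and 0.21 in shSF3B4 and 0.15 and 0.14 in shU2AF2. CHTOP, an export adaptor, had 0.38, 0.35 and 0.4 in the controls, 0.55 and 0.52 in shSF3B4 and 0.5 and 0.45 in shU2AF2. THOC5 and DIS3, an export and an exosome protein, rose by 0.032 and 0.039. With libraries centred EXOSC6 kept its call and the 3 rises were not called. Of 22 genes of the exon junction complex and nonsense-mediated decay, PNN and SAP18 rose, by 0.087 and 0.054, 0 fell and 20 did not pass, and neither rise was called with libraries centred.

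Genes of the microRNA pathway and the CCR4-NOT deadenylase moved both ways, with 2 rises and 3 falls among 28 tested and 23 that did not pass. AGO3, an Argonaute protein, had 0.29, 0.42 and 0.44 in the controls, 0.93 and 0.81 in shSF3B4 and 0.83 and 0.62 in shU2AF2. AGO2, the Argonaute that cleaves its targets, had 0.82, 0.77 and 0.64 in the controls and 0.94 to 1 in the knockdowns, but did not differ from the other knockdowns, whose median was 1 (limma, adjusted p = 0.218). CNOT6, a deadenylase subunit, had 0.62, 0.68 and 0.69 in the controls, 0.46 and 0.45 in shSF3B4 and 0.52 and 0.54 in shU2AF2. CNOT6L, a related deadenylase subunit, also fell. The counts were the same with libraries centred, and 2 rises and 2 falls without control replicate 1.

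In the mTOR pathway, which couples nutrients to growth, 7 of 48 tested genes rose, 1 fell and 40 did not pass. Besides TSC1, the rises were RHEB, the GTPase that TSC1 restrains, CASTOR1, an arginine sensor, RPS6KB2, an S6 kinase, LAMTOR3, WDR24 and WDR59, and the fall was the other S6 kinase, RPS6KB1. CASTOR1 had 0.2, 0.2 and 0.25 in the controls, 0.41 and 0.39 in shSF3B4 and 0.4 and 0.35 in shU2AF2, and overlaps AC004997.1. RPS6KB2 had 0.43, 0.52 and 0.5 in the controls, 0.6 and 0.64 in shSF3B4 and 0.95 and 0.84 in shU2AF2, and lies opposite RPS6KB2-AS1. RHEB went from 0.09 to 0.11 in the controls to 0.14 and 0.14 in shSF3B4 and 0.16 and 0.16 in shU2AF2, and was not called with libraries centred. The rises thus included both an inhibitor and an activator of the pathway. With libraries centred the list had 3 rises and 0 falls, and without control replicate 1 there were 6 and 0. Among 30 receptor tyrosine kinases EGFR and EPHB2 rose, 0 fell and 28 did not pass. EPHB2, an ephrin receptor, was at 0.03 to 0.05 in the controls, 0.13 and 0.1 in shSF3B4 and 0.08 and 0.06 in shU2AF2, and was not called with libraries centred.

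Vesicle traffic genes rose in 5 of 67 cases, 7.5% beside 5.6% of all genes, with 0 falls and 62 that did not pass. The rises were AP2A1, AP1M1, VPS53, YIPF4 and YIPF6. VPS53, of a tethering complex at the Golgi, had 0.26, 0.33 and 0.43 in the controls, 1 and 1 in shSF3B4 and 0.72 and 0.6 in shU2AF2. YIPF4, a Golgi membrane protein, had 0.14, 0.16 and 0.14 in the controls, 0.23 and 0.24 in shSF3B4 and 0.7 and 0.89 in shU2AF2. VPS53 was higher in shSF3B4 and YIPF4 in shU2AF2, by 0.34 and −0.56 between the knockdowns (limma, adjusted p = 0.0145 and 0.000425). For YIPF4, shSF3B4 alone did not pass against control (0.088, limma, adjusted p = 0.385). Of 21 peroxisome biogenesis genes, PEX16, PEX19 and PEX26 rose, 0 fell and 18 did not pass. PEX19, a receptor for peroxisomal membrane proteins, had 0.52, 0.52 and 0.54 in the controls, 0.62 and 0.7 in shSF3B4 and 0.89 and 0.78 in shU2AF2. The rise of PEX26 by 0.046 lost its call without control replicate 1 or 3 or any knockdown library (limma, adjusted p from 0.0579 to 0.107), and the list had 2 rises with libraries centred.

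Of 53 genes of the primary cilium and its transition zone, 3 rose, 1 fell and 49 did not pass. Rises were 5.7% and falls 1.9%, near the 5.6% and 1.3% of all genes. TMEM237, a transition zone protein, had 0.42, 0.32 and 0.29 in the controls, 0.62 and 0.71 in shSF3B4 and 1 and 1 in shU2AF2, and overlaps the pseudogene ENO1P4. KIF3C, a kinesin motor, fell by 0.299 with 0.76, 0.59 and 0.68 in the controls, 0.54 and 0.42 in shSF3B4 and 0.21 and 0.34 in shU2AF2. INVS and TMEM107 rose by 0.194 and 0.263 and lost their calls in single leave-one-out fits, INVS without control replicate 2 (limma, adjusted p = 0.0509) and TMEM107 without control replicate 3, shSF3B4 replicate 2 or shU2AF2 replicate 1 (0.0567 to 0.0796). INVS was also not called with libraries centred, when the list had 2 rises and 1 fall.

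Among 69 ubiquitin ligases and E2 enzymes, 6 rose, 2 fell and 61 did not pass. These were 8.7% and 2.9%, beside 5.6% and 1.3% of all genes. UBE2H, an E2 enzyme, fell together with TRIM33, from 1, 0.98 and 1 to 0.85 and 0.81 in shSF3B4 and 0.88 and 0.81 in shU2AF2. UBE2F, the E2 enzyme of NEDD8, had 0.32, 0.23 and 0.3 in the controls, 0.48 and 0.55 in shSF3B4 and 0.37 and 0.35 in shU2AF2, and overlaps the readthrough gene UBE2F-SCLY. SKP1, at 0.03 in all 3 controls and 0.04 to 0.05 in the knockdowns, turned to −0.012 with libraries centred, when the list had 1 rise and 3 falls. Of 52 oxidative phosphorylation genes 5 rose, 0 fell and 47 did not pass. ATP5F1D, a subunit of ATP synthase, had 0.41, 0.46 and 0.47 in the controls, 0.58 and 0.56 in shSF3B4 and 0.75 and 0.73 in shU2AF2. The other 4 rises, NDUFA9, NDUFC2, COX7B and UQCRB, included differences as small as 0.01, and NDUFA9 and COX7B turned to −0.017 and −0.003 with libraries centred. With libraries centred ATP5F1D was the 1 rise of the list.

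Of 57 cell cycle and replication licensing genes, 4 rose, 0 fell and 53 did not pass. Rises were thus 7% of the list, beside 5.6% of all genes. CDT1, which loads the replicative helicase, was at 0.24 in every control, 0.39 and 0.42 in shSF3B4 and 0.56 and 0.5 in shU2AF2, a difference of 0.228 (SE 0.014, limma, adjusted p = 2.71e-05). ORC4, of the origin recognition complex, went from 0.11, 0.11 and 0.1 to 0.22 and 0.19 in shSF3B4 and 0.22 and 0.18 in shU2AF2, and overlaps ACVR2A. With libraries centred CDT1 was the 1 rise of the list. MCM8 and MCM5, helicase subunits, rose by 0.193 and 0.022. MCM8 lost its call in each of the 7 leave-one-out fits (limma, adjusted p from 0.0674 to 0.12). MCM5 lost it without control replicate 1 or 2, shSF3B4 replicate 2 or shU2AF2 replicate 1 (0.0575 to 0.0686) and turned to −0.006 with libraries centred. Among 59 DNA damage response genes, 2 rose, 0 fell and 57 did not pass. LIG3, a DNA ligase, rose by 0.09, not called with libraries centred, and RAD51C by 0.027, which lost its call in each leave-one-out fit (limma, adjusted p from 0.0644 to 0.13) and turned to −0.001 with libraries centred.

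Of 280 zinc finger genes with a ZNF symbol, 11 rose (3.9%), 7 fell (2.5%) and 262 did not pass, with 6 rises and 8 falls when libraries were centred. Over all genes tested, 5.6% rose and 1.3% fell. ZNF431 had 0.32, 0.33 and 0.34 in the controls, 0.44 and 0.48 in shSF3B4 and 0.81 and 0.7 in shU2AF2. ZNF548 went down from 0.28, 0.28 and 0.31 to 0.21 and 0.2 in shSF3B4 and 0.21 and 0.15 in shU2AF2. Of 1403 tested non-coding and clone-named genes, 56 rose (4%), 20 fell (1.4%) and 1327 did not pass. Several lie opposite a coding gene: AC137630.3 opposite IMPDH2, with 0.01 to 0.02 in the controls and 0.12 to 0.2 in the knockdowns, HMGN3-AS1 opposite HMGN3, with 0.06 to 0.07 and 0.16 to 0.19, and U47924.2 opposite C12orf57, with 0.31 to 0.35 and 0.65 to 0.99. Of the markers of other cell types, 6 of 22 were in the table and 3 were tested, of which 0 rose and 0 fell.

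**Figure D4:**
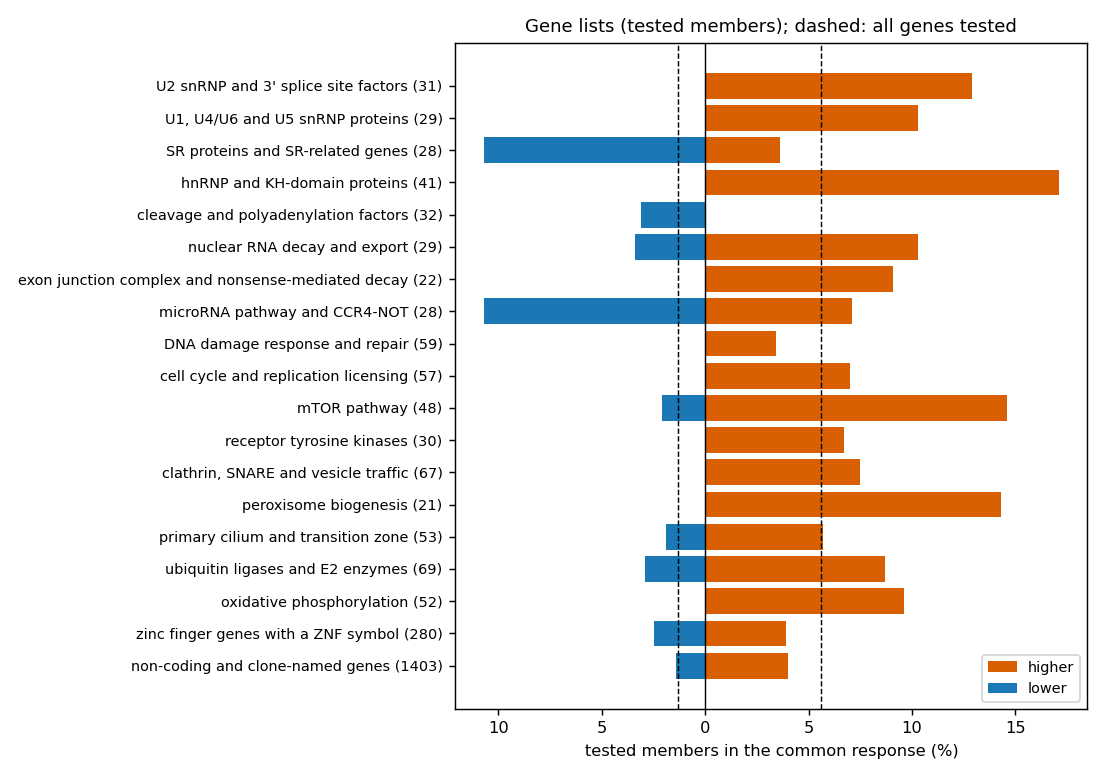
Percent of the tested members of each gene list in the common response (horizontal axis), with falls to the left and rises to the right of 0, and dashed lines at the values over all genes tested, 1.3% and 5.6%. The number of tested members stands after each name. The list of hnRNP, KH-domain and other RNA-binding proteins, drawn under the hnRNP name, has the longest bar to the right, 17.1%, and the SR and microRNA lists the longest to the left, 10.7%, from 7, 3 and 3 genes.

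The structure of the genes, which the comparison did not use, was taken from GENCODE release 29. Found there were 97.9% of the rising genes, 99.3% of the falling genes and 97.7% of all genes tested. Transcripts were matched without their version. The version was the same for 312 of 638 matched rises, 73 of 150 matched falls and 6308 of 11457 matched genes. For the rest the annotated end may differ, which also limits the hexamer shares above. Common response genes had long last exons. The median length was 2578 bases in the genes that rose and 3241 bases in those that fell, against 1413 bases in all genes tested. Of 4 equal classes of genes by this length, 10.65% rose and 3.25% fell in the class with the longest last exons. In the shortest class these were 3.18% and 0.31%. The spread between libraries of 1 group was lower in the longest class, with a median SD of 0.0365 against 0.0508 in the shortest, and its part in these percentages was not tested. The median number of exons was 8 in rises, 9 in falls and 7 in all genes, and the median last intron was 1217, 1889 and 1385 bases long.

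Further annotated ends within the last exon were known for 75.9% of the rises and 73.3% of the falls, against 63.3% of all genes. An intron of another transcript lay inside the last exon in 12.9% of the rises, 10% of the falls and 8% of all genes. Rises named above with such an intron included AP2A1, ELP5, ZNF704, DGAT1, MAPK1IP1L, LUC7L3, PNN, DIS3, PEX19, RPS6KB2, ATP5F1D and ZNF431. TRIM33, MYORG and HOXC-AS2 were such genes among the falls. Whether splicing of these introns entered the PDUI was not tested. Another gene overlapped the last exon in 30.4% of the rises, 24% of the falls and 25.6% of all genes. These were 194 of 638 matched rises, 36 of 150 matched falls and 2935 of 11457 matched genes, which left 444 rises and 114 falls without such an overlap. Besides the overlaps given above, an exon of another gene also overlaps the last exon of CFAP410, SPOPL, U2AF2, DIS3, LIG3, VPS53, PEX19, PEX26, SKP1, ZNF431 and ZNF548.

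**Figure D5:**
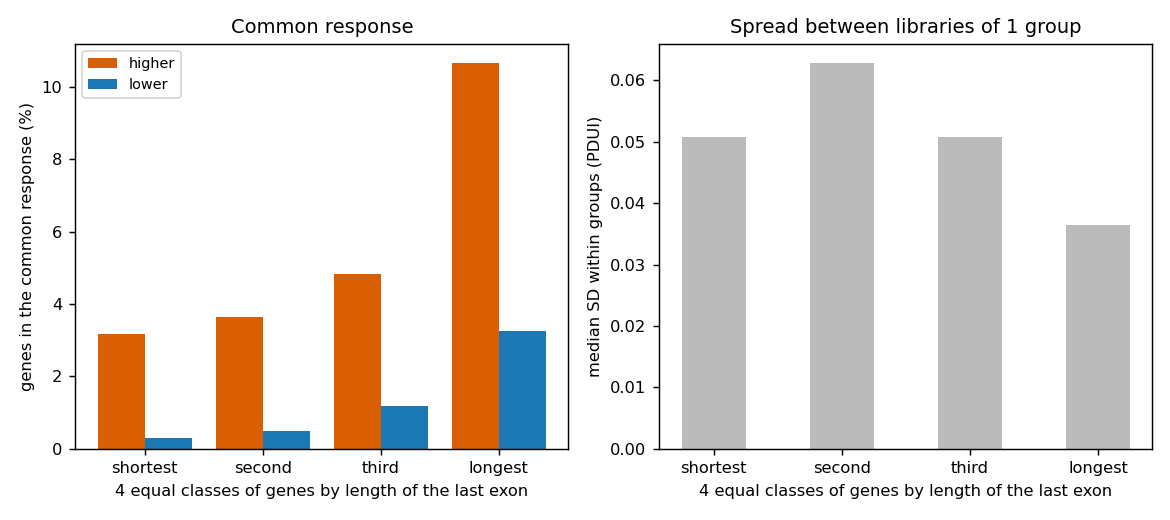
Left, percent of genes in the common response (vertical axis) in 4 equal classes by length of the last exon, with rises in orange and falls in blue. Right, median SD of PDUI between libraries of 1 group in the same classes (grey); the longest class has the most rises and falls, 10.65% and 3.25%, and the lowest spread, 0.0365.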

How the data were processed

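PDUI values are fractions as the authors deposited them, 1 transcript per gene, on build hg38 per the submitters' processing notes. The aligner, the PDUI program and the gene models were not given in the sources used here. Deposited fractions have 2 decimals and no counts, so no interval or detection limit is given. Groups follow the titles.

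The values were fitted without transformation in limma 3.58.1 (R 4.3.3), with 1 mean for each of the 7 groups over all 15 libraries and eBayes with a trend on the mean (8 residual degrees of freedom, prior 1.07). The contrasts were the mean of shSF3B4 and shU2AF2 minus shControl, the same minus the mean of the other 4 knockdowns, and shSF3B4 minus shU2AF2. Each was two-sided, with Benjamini-Hochberg adjustment over all genes tested. The procedure was tested on simulated data. Library means were compared by exact permutation.

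The common response needed an adjusted p under 0.05 and all 4 libraries beyond the control range. Named genes were the 20 rises and 12 falls with the widest gaps between nearest libraries. Added to them were up to 4 common response genes per list with the smallest p, and SF3B4 and U2AF2. Of the common response, the 8 genes with the smallest p against the other knockdowns, in the same direction, were also named. So were up to 4 genes that moved in opposite directions and the 2 rises and 2 falls with the smallest p between the knockdowns. The comparison, the 20 lists, which share some genes, and the tests were chosen with earlier results of these data known. CYP4F26P and SF3B1 transcripts were not matched in GENCODE 29. Coordinates are from that release, with transcripts matched without their version. The values of 4 named genes are not reported here. The pyrimidine content of the last intron was planned and not computed here. Alternatives were other scalings, filters and fits, a replicate block, and leaving out each library.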

Additional observations from a re-analysis of the deposited data

Results flagged for a closer look

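In 8 of 105 tested sets of 4 knockdown values, 1 library stood apart from the other 3 by Dixon's criterion at 95%. Chance gives this in about 1 of 20 sets of continuous values, a rate that does not hold for rounded fractions with ties. The lone values were lower than the rest for TSC1 at 0.97, CYP4F26P at 0.98, ZNF704 at 0.92, AGO2 at 0.94, HNRNPD at 0.07, COX7B at 0.03 and ZNF548 at 0.15. It was higher than the rest for SRSF3 at 0.07. For COX7B, SRSF3, HNRNPD and CYP4F26P the gap was 0.01 or 0.02, at the resolution of the table. In each of these sets but that of ZNF548 the other 3 values were equal, so a gap of any size passes. Those of TSC1, ZNF704 and AGO2 were tied at 1, the upper limit.

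The difference between shSF3B4 and shU2AF2 itself passed in 34 of the 104 named genes (limma, adjusted p under 0.05), against 4.36% of all genes tested, and 31 of them are given here. Of the named genes, 8 were chosen for this difference or for opposite directions. Values are shSF3B4 minus shU2AF2 in PDUI, with 2 libraries each. Those in splicing and RNA processing lists were SUGP1 −0.09, SART1 −0.26, SRSF10 −0.135, HNRNPA3 −0.12, DIS3 −0.035, EXOSC6 0.065 and PNN 0.055. In the other lists they were LIG3 −0.08, CDT1 −0.125, RPS6KB2 −0.275, VPS53 0.34, YIPF4 −0.56, YIPF6 −0.31, TMEM237 −0.335, SKP1 0.01, UBE2F 0.155, ATP5F1D −0.17, ZNF562 −0.21 and ZNF431 −0.295, and for the non-coding U47924.2 and AC137630.3 −0.27 and 0.06. Genes named for the comparison with other knockdowns or between the 2 knockdowns gave DGAT1 −0.075, RPAP2 0.21, PLXNA3 −0.035, MAPK1IP1L −0.3, DBNL −0.34 and TM9SF3 −0.095. Genes that moved in opposite directions gave AL161668.3 −0.52, CPSF6 −0.36, OTUD7B −0.295 and AC025165.1 −0.285.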

How the results depend on the processing

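Counts are given as rises and falls of the common response, calls of the pooled comparison, calls against the other knockdowns, and common response genes that differed between the 2 knockdowns; these were 652, 151, 975, 1198 and 158 as reported. With only the 7 libraries in the fit, falls were 92, calls 629 and differing genes 62. With the 4 knockdown libraries as 1 group in that fit, there were 149 rises, 37 falls and 186 calls, since differences between the knockdowns then count as spread, and 65 named genes lost their calls. With libraries centred on their medians, rises were 237, calls 499, calls against the other knockdowns 789 and differing genes 42. Asking for a difference of at least 0.1 left 385 rises, 556 calls, 591 calls against the other knockdowns and 101 differing genes. On a logit scale with limits of 0.01, 99 genes differed, and without overlapping genes, an alternative chosen after seeing the data, 101 did. Leaving out 1 of the 7 libraries gave 531 to 619 rises, 100 to 130 falls, 692 to 854 calls, 948 to 1250 calls against the other knockdowns and 97 to 155 differing genes, and a library mean difference of 0.0057 to 0.0253. The lowest numbers of rises, falls and calls were without control replicate 3. Differing genes were 97 and 104 without shSF3B4 replicate 1 or 2 and 103 without shU2AF2 replicate 1. The other count alternatives stayed within 1.5 times, and no leave-one-out fit turned the direction of a named gene that was called.

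Libraries with the same number did not deviate together (r = 0.024 and 0.029 between shControl and shU2AF2, over genes), so the numbers were not taken as pairs. A replicate block gave 90 falls with shSF3B4 numbered by column name and 87 in the other order. Centring turned the direction of 7 named genes that were called, to −0.015 for SRSF3, −0.003 for HNRNPD, −0.001 for RAD51C, −0.006 for MCM5, −0.012 for SKP1, −0.017 for NDUFA9 and −0.003 for COX7B, by construction, since these differences are smaller than the shift. Another 23 named genes lost their calls there. The depth behind each value is unknown, which limits all of these.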

Other observations

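In 7 genes that were not called in the pooled comparison, each knockdown passed against control in the opposite direction of the other, so that pooling removed the difference. CPSF6, a subunit of cleavage factor I, which binds upstream of poly(A) sites, had 0.59, 0.64 and 0.56 in the controls, 0.42 and 0.41 in shSF3B4 and 0.77 and 0.78 in shU2AF2. The differences from control were −0.182 and 0.178 (limma, adjusted p = 0.0417 and 0.0362), and MIR1279 lies opposite its last exon. OTUD7B, a deubiquitinase, had 0.34, 0.4 and 0.37 in the controls, 0.21 and 0.21 in shSF3B4 and 0.51 and 0.5 in shU2AF2. The non-coding AL161668.3, opposite METTL17, had 0.42, 0.46 and 0.41 in the controls, 0.2 and 0.24 in shSF3B4 and 0.7 and 0.78 in shU2AF2. AC025165.1, opposite ARHGEF25, had 0.23, 0.25 and 0.28 in the controls, 0.13 and 0.13 in shSF3B4 and 0.38 and 0.45 in shU2AF2. In each of these 4 genes the 3 controls lay between the 2 knockdowns, and the direct difference between shSF3B4 and shU2AF2 passed (limma, adjusted p = 0.00324, 0.00117, 0.000298 and 0.00118).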
